A study of Mus musculus with 14 samples.

Results

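Cycling epithelial cells of mouse intestinal organoids that had not received Isx-9 were taken from the 3 single-cell RNA-seq libraries without that compound. A cell was kept with at least 500 genes, at least 1000 UMIs (unique molecular identifiers, each standing for 1 captured transcript) and at most 20% mitochondrial UMIs, and it was called cycling with at least 2 UMIs each of Mki67 and Top2a. Of 27324 kept cells, 7466 were cycling, or 27.32%. A separate library, Chgb-mCherry knock-in organoids given 25 µM Isx-9 for 6 days, held 858 cells that pass the same rule and are no members. The members comprised 2344 cells from Chgb-mCherry knock-in reporter organoids given 0.05% DMSO for 6 days, 2737 cells from untreated Chgb-mCherry knock-in organoids and 2385 cells from untreated wild-type (WT) organoids. Each condition was 1 library of whole organoids grown in ENR medium, which holds the growth factors EGF, Noggin and R-spondin1, and Isx-9 and DMSO were given from day 2 after passage. Line, vehicle and library therefore cannot be told apart, and no test between conditions exists.

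Intestinal epithelium renews itself from Lgr5 stem cells at the crypt base, whose daughters divide several times as transit-amplifying cells before they leave the cycle and mature. A dividing cell passes from G1 through S phase, when DNA is copied, to G2 and mitosis. E2F factors switch on the genes of DNA replication at the start of S phase, and the MuvB complex with B-MYB and FOXM1 later switches on those of mitosis. Mki67 encodes Ki-67, which coats mitotic chromosomes, and Top2a encodes topoisomerase II alpha, which untangles replicated DNA. Both transcripts are richest late in the cycle.

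The deposited control matrices held 10830 to 11885 cells and 132150411 to 139401464 UMIs each, and shared 13 to 22 cell barcodes between any 2 of them. The members were epithelial by their markers: an Epcam UMI was found in 99.96% of cells in DMSO, 99.89% in untreated reporter and 99.96% in WT members, and every member carried a UMI of the 6-gene epithelial list. Of 11 immune genes 6 were in each matrix, with a summed level of 1.963 to 2.863 counts per 1000000 UMIs (CPM). Of 12 mesenchymal, endothelial and glial genes 6 were in the DMSO matrix, 5 in untreated reporter and 4 in WT. Their summed level was 3.164 to 3.468 CPM. Lyz2 had been left out of the immune list, and Vim and S100b out of the other. The median member held 20441 UMIs in DMSO, 18329 in untreated reporter and 22557 in WT organoids. Scrublet, a doublet caller, marked 0, 0 and 1 kept cells and so did not work here; the top 8% of its scores held 15.49%, 15.09% and 15.51% of the members of these libraries.

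The members were chosen by their measured Mki67 and Top2a UMIs, so these are given as a description only. The median member had 6 Mki67 UMIs in DMSO, 6 in untreated reporter and 8 in WT organoids, and 8, 8 and 10 Top2a UMIs. Exactly 2 UMIs of each gene were found in 62 DMSO, 81 untreated reporter and 46 WT members. Just outside stood 316, 366 and 221 cells with 1 Mki67 UMI and at least 2 of Top2a, and 194, 227 and 204 cells with 1 Top2a UMI and at least 2 of Mki67. To set cells of unequal depth side by side, each was thinned at random to 5000 UMIs. The members at the threshold then had a median of 17, 18 and 15 UMIs from 97 mitosis genes, against 16, 18 and 14 in the cells short of Mki67 and 19, 19 and 16 in those short of Top2a. Cells with 1 UMI of each gene, 210, 220 and 159 in number, had 9, 10 and 9. The cells short of 1 gene thus had like numbers of mitosis UMIs to the members at the threshold, those short of both had fewer, and members with at least 3 UMIs of both genes had 41, 43 and 44.

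In Isx-9 organoids 8.566% of kept cells passed the rule (exact binomial 95% interval 8.025 to 9.131). Scrublet called 831 of the 10016 kept Isx-9 cells doublets, 161 of them among the 858 that pass the rule. They are kept in the Isx-9 values here, while nearly no cell was called in the other libraries. Without Isx-9, cycling cells made up 26.13% of kept cells in DMSO (25.23 to 27.06), 28.48% in untreated reporter (27.58 to 29.39) and 27.27% in WT organoids (26.34 to 28.22). These intervals, like all others here, cover counting error only. The rule finds more members in deeper cells, so it was also applied after thinning, where 3.831% of Isx-9 cells passed (3.444 to 4.247), against 10.75% of DMSO (10.08 to 11.46), 13.0% of untreated reporter (12.29 to 13.73) and 12.2% of WT cells (11.47 to 12.96). The Isx-9 interval lay below the other 3 on both scales. Among the libraries without Isx-9 DMSO had the lowest share and untreated reporter the highest on both scales, but WT had the lowest with at least 1 UMI of each gene (33.95%) and the highest with at least 3 (24.05%).

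**Figure D1:**
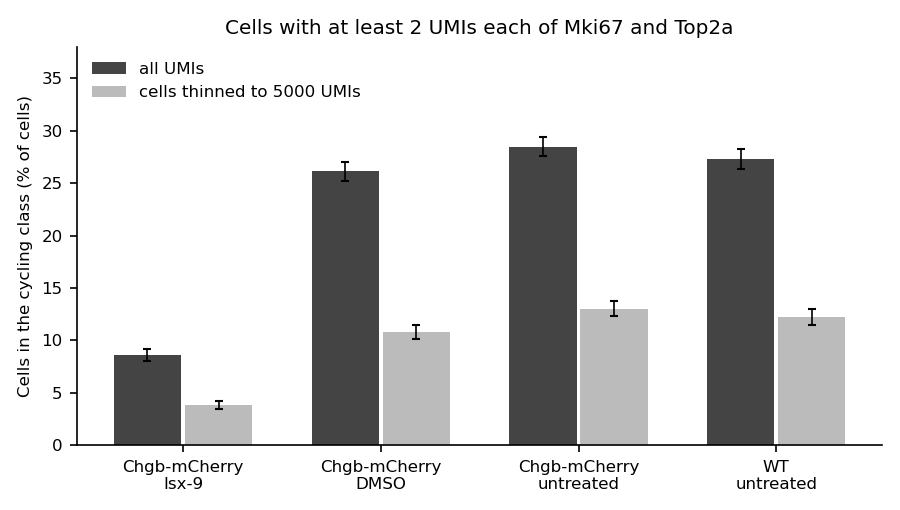
Bars give the percent of kept cells with at least 2 UMIs each of Mki67 and Top2a in each single-cell library, at full depth and after thinning to 5000 UMIs, with exact binomial 95% intervals. The Isx-9 library lies at 8.566% at full depth and 3.831% after thinning, and the 3 libraries without Isx-9 lie between 26.13% and 28.48% and between 10.75% and 13.0%.

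To describe what the members express, their UMIs were summed per library and set against 2 other classes of the same library. The nearer class held cells with no UMI of Mki67 or Top2a and at least 2 each of the stem cell markers Lgr5 and Olfm4. It comprised 991 DMSO, 831 untreated reporter and 829 WT cells, which are called non-cycling Lgr5 Olfm4 cells. The name means only that neither Mki67 nor Top2a was detected. Both are richest late in the cycle, so cells in G1 or S phase are not excluded. As given below, most cells of this class held more replication than mitosis UMIs after thinning. The wider class held all 3968, 4024 and 3982 cells with no UMI of Mki67 or Top2a. Ratios are log2 of CPM plus 1, and a gene was compared where the higher class had at least 20 CPM in every library. Over non-cycling Lgr5 Olfm4 cells, 196 of 5267 genes were at least 2-fold higher in members in all 3 libraries (3.72%) and 8 were at least 2-fold lower (0.152%). Over all cells without a UMI of the 2 genes, 298 of 5645 genes were higher by this measure (5.28%) and 284 were lower (5.03%). Of the 196 genes, 191 were also among the 298, which is 97.45% of the smaller set and 64.09% of the larger. Because Mki67 and Top2a of the same cells chose the classes, these ratios are descriptions with no test, and nothing is read from the shares of genes called. Median depth moved with the classes: it was 13246, 12439 and 14836 UMIs in non-cycling Lgr5 Olfm4 cells, well below the members, and its part in the ratios was described by repeating them in cells of 10000 to 20000 UMIs.

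The machinery of mitosis stood far higher in the members than in either class. All 25 compared genes of spindle motors and cytokinesis and all 26 of the kinetochore and centromere were at least 2-fold higher over both classes, with median log2 ratios of 3.87 and 3.1 over non-cycling Lgr5 Olfm4 cells, where the median of all genes was 0.08. Of 20 mitotic kinases, cyclins and their regulators 19 were higher (median 3.06), as were 11 of 12 genes of the anaphase-promoting complex and checkpoint (median 2.72). Cdc20, which activates the anaphase-promoting complex, had 149.6 CPM in DMSO (exact Poisson 95% interval 146.1 to 153), 158 CPM in untreated reporter (154.6 to 161.5) and 159.8 CPM in WT members (156.5 to 163.2). In non-cycling Lgr5 Olfm4 cells it had 10.7 CPM (8.97 to 12.6), 12.5 CPM (10.4 to 14.8) and 11.03 CPM (9.27 to 13.0). All 3 member values lay far above all 3 others, a median log2 ratio of 3.69.

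Ccnb1, the cyclin that drives entry into mitosis with Cdk1, had 113 CPM in DMSO, 118.6 CPM in untreated reporter and 120.5 CPM in WT members, against 8.40, 10.4 and 7.14 CPM in non-cycling Lgr5 Olfm4 cells. Plk1, a kinase of centrosomes and kinetochores, had 80.7, 80.2 and 82.3 CPM in members of these libraries, against 3.75, 4.57 and 3.41 CPM. The largest ratio in this comparison was that of Nusap1, which bundles spindle microtubules: 126 CPM in DMSO, 131 CPM in untreated reporter and 135 CPM in WT members, against 2.70, 1.62 and 1.03 CPM in non-cycling Lgr5 Olfm4 cells. Prc1 (4.93), which bundles the central spindle, Hmmr (4.93), a spindle assembly factor, the motor Kif11 (4.75) and Tpx2 (4.72), which activates Aurora A, had the next largest log2 ratios among mitosis genes, and the kinases Aurkb (4.56) and Aurka (4.47) and the kinetochore proteins Knl1 (4.53) and Cenpf (4.32) followed. The exceptions in these lists were Wee1, the kinase that holds Cdk1 inactive, at 0.63, and Pttg1, the separase inhibitor securin, at 0.09 with 24.6 to 27.1 CPM in members. Outside the cell cycle lists stood 73 of the 196 genes, led by Esco2, which acetylates cohesin (4.59), Cdca2, a chromosome-bound phosphatase subunit (4.32), and Pbk, a mitotic kinase (4.02). In cells of 10000 to 20000 UMIs 216 genes were higher over this class and 5 were lower.

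**Figure D2:**
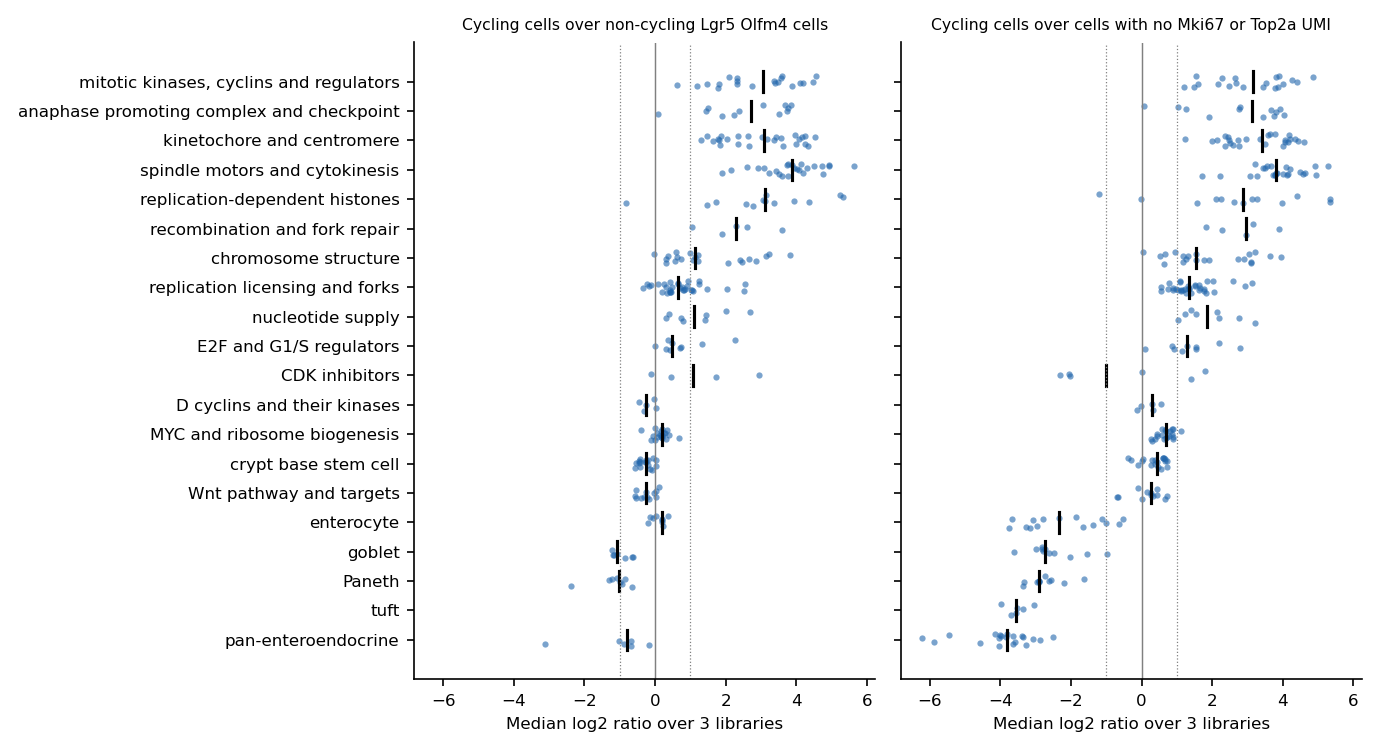
Each point is 1 compared gene, placed by its median log2 ratio over the 3 control libraries in cycling cells over non-cycling Lgr5 Olfm4 cells (left) and over all cells with no Mki67 or Top2a UMI (right); bars mark list medians and dotted lines 2-fold. Mitosis lists sit near 3 or higher in both panels (medians 3.06 and 3.15 for mitotic kinases), replication licensing and forks at 0.66 on the left and 1.33 on the right, and enteroendocrine genes at -3.82 on the right.

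Promoter windows of the rule genes and of genes that stood high or modestly higher are shown, since mitosis genes are known to share a CHR element (cell cycle genes homology region) and CCAAT boxes. Windows run from 250 bases before to 50 after the RefSeq gene start on GRCm38.p6: Mki67 at chr7:135716330-135716629, minus strand, Top2a at chr11:99024140-99024439, minus strand, Cdc20 at chr4:118437294-118437593, minus strand, Plk1 at chr7:122159185-122159484, plus strand, and Mcm5 at chr8:75109259-75109558, plus strand. Each is printed in the direction of its gene, and capitals mark matches to TTTGAA (CHR) or CCAAT on either strand, so that TTCAAA and ATTGG are the same motifs reversed.
Mki67: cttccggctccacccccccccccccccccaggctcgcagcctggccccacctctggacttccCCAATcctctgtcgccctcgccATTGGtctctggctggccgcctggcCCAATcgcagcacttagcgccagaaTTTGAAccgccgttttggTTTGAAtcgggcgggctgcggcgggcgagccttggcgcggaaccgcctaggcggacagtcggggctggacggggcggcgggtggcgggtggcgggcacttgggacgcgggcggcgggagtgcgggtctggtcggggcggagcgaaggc
Top2a: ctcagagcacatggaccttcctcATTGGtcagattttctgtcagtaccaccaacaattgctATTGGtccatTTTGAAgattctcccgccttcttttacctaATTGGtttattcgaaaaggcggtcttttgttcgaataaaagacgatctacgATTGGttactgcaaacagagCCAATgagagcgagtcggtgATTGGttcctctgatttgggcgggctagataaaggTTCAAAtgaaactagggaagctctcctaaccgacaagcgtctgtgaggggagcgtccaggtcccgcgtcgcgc
Cdc20: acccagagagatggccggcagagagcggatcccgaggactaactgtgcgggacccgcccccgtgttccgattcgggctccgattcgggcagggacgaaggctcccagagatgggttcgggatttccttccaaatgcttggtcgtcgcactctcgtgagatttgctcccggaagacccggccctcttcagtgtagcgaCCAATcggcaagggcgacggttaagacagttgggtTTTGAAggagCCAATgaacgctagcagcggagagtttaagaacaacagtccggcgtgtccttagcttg
Plk1: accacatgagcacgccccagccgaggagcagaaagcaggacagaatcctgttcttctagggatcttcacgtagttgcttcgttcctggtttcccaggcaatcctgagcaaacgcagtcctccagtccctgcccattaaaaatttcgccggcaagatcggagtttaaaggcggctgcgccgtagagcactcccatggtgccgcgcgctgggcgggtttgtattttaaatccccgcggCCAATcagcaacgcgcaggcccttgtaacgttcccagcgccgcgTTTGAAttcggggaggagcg
Mcm5: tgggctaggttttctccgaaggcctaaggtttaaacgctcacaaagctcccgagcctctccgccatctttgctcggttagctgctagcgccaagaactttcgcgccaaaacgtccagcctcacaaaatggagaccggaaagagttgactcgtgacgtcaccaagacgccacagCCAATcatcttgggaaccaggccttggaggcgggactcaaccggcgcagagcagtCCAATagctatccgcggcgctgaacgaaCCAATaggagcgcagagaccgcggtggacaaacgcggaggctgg

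Both rule genes, Cdc20 and Plk1 hold the CHR letters in these windows, and the replication helicase gene Mcm5 holds CCAAT matches without them. Not every mitosis gene does: the windows of Ccnb1 and Nusap1 hold no CHR match. Of the 81 mitosis-list genes at least 2-fold higher over cells without a UMI of the rule genes, 69 had a window, and 42 of those held TTTGAA (60.9%), against 18.2% of all 27025 windows and 12.7% of the 12087 windows of genes in all 3 matrices. CCAAT was in 46 of the 69 (66.7%), against 38% of all windows, and both motifs in 33 (47.8%), against 7.16%; among genes in all 3 matrices these shares were 38.6% and 5.29%. Of 39 replication-list genes higher by the same measure, 33 had a window, of which 6 held TTTGAA (18.2%) and 22 CCAAT (66.7%). The E2F-type letters TTTGGCG or TTTCCCG were in 12 of these 33 (36.4%) and in 9 of the 69 mitosis windows (13%), against 4.97% of all windows and 7.61% of those of genes in all 3 matrices. In 40 of all windows a CHR and a CCAAT match share 1 base. Of all 97 mitosis-list genes, called or not, 84 had a window. TTTGAA was in 50 of these (59.5%), CCAAT in 58 (69%) and both in 40 (47.6%). Of all 63 replication-list genes 51 had a window, and 22 of these held the E2F-type letters (43.1%). The shares thus describe the lists, not the genes that stood higher in members. A match is a description of letters, not of a bound site.

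Genes of DNA replication were higher in members too, but the distance depended on the class they were set against. Of 33 compared genes of replication licensing and forks, 26 were at least 2-fold higher over cells with no UMI of the rule genes (median log2 ratio 1.33), and 6 over non-cycling Lgr5 Olfm4 cells (median 0.66). Those 6 were Asf1b (2.55), a histone chaperone, Clspn (2.51), a fork checkpoint protein, the helicase partner Cdc45 (2.04), Rfc5 (1.48) and Rfc4 (1.26) of the clamp loader, and Mcm10 (1.26). In cells of 10000 to 20000 UMIs it was 12 of 35.

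Mcm5, a subunit of the replicative helicase, had 67.3 CPM in DMSO, 66.2 CPM in untreated reporter and 72.7 CPM in WT members. In non-cycling Lgr5 Olfm4 cells it had 50.0, 50.6 and 50.6 CPM, and in all cells without a UMI of the rule genes 26.2, 25.8 and 23.2 CPM. Members were above the Lgr5 Olfm4 cells in all 3 libraries, by less than 2-fold. Its partner Mcm2 stood the other way round, with 40.4, 40.2 and 44.3 CPM in members of these libraries, against 47.9, 47.2 and 49.4 CPM in non-cycling Lgr5 Olfm4 cells. Mcm6 (-0.11), Mcm4 (-0.18) and the licensing factor Cdt1 (-0.35) also had negative median log2 ratios over that class. Pcna, the sliding clamp, was at 0.70, with 80.2, 75.9 and 86.4 CPM in DMSO, untreated reporter and WT members, against 48.8, 48.7 and 47.1 CPM.

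Nucleotide supply and fork repair had higher list medians (1.10 and 2.29) than licensing. Rrm2, the S-phase subunit of ribonucleotide reductase, had 83.6 CPM in DMSO, 82.8 CPM in untreated reporter and 86.1 CPM in WT members, against 12.2, 16.2 and 9.21 CPM in non-cycling Lgr5 Olfm4 cells. Tk1 (2.01), Tyms (1.45) and Rrm1 (1.42) were also at least 2-fold higher over that class, making 4 of 8 nucleotide genes. Of 5 recombination and fork repair genes 4 were, among them the glycosylase Neil3 (3.60) and the helicase Blm (1.89). Among 9 E2F and G1/S regulators only E2f8, a repressive E2F (2.27), and Atad2 (1.33) were, while Dnmt1, which copies DNA methylation, was at 0.73 and Uhrf1, its partner, at 0.71. Ccne1, the cyclin of S-phase entry, was below 20 CPM and so was not compared, at 15.3 CPM in DMSO, 15.8 CPM in untreated reporter and 18.1 CPM in WT members.

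Most replication-dependent histone genes were also higher. Of 13 replication-dependent histones 12 were at least 2-fold higher over non-cycling Lgr5 Olfm4 cells (median 3.11). Linker histone Hist1h1b had 381 CPM in DMSO, 429 CPM in untreated reporter and 559 CPM in WT members, against 10.3, 10.3 and 10.4 CPM. The WT value was the highest of the 3, and the lower class was nearly level. Hist1h2ap reached a median log2 ratio of 5.33. These transcripts mostly lack a poly(A) tail and histone copies resemble each other, so their counts are uncertain. Hist1h2bc, at -0.82, was the one compared histone below 0. Of 21 chromosome structure genes 12 were higher (median 1.14), led by the condensin subunits Ncapg (3.81) and Smc2 (3.15) with H2afx (3.23).

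D cyclins and their kinases, which act before S phase, had lower list medians. These were -0.26 over non-cycling Lgr5 Olfm4 cells and 0.29 over all cells without a UMI of the rule genes. None of 5 was 2-fold apart from either class. Of all genes 3.72% were higher and 0.152% lower over the first class, and 5.28% and 5.03% over the second. Nothing is therefore read from this 0. Ccnd1 had 93.9 CPM in DMSO, 100.8 CPM in untreated reporter and 124 CPM in WT members, against 118, 125 and 165 CPM in non-cycling Lgr5 Olfm4 cells, lower in members in all 3 libraries (median log2 ratio -0.32). Ccnd2 was at -0.26 and Cdk6 at -0.46, while Cdk4 was at 0.04. CDK inhibitors split. Cdkn1a (p21), a target of p53, had 58.0 CPM in DMSO, 61.0 CPM in untreated reporter and 76.7 CPM in WT members, against 237, 249.7 and 325 CPM in all cells without a UMI of the rule genes, a median log2 ratio of -2.02. Against non-cycling Lgr5 Olfm4 cells, which had 62.7, 66.8 and 69.8 CPM, its ratio was -0.11. Cdkn1c (-2.07) and Cdkn2b (-2.32) were likewise lower over all such cells, and Cdkn1b (p27) was at 0.02.

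A pair of INK4 inhibitors of Cdk4 and Cdk6 stood higher in members instead. Cdkn2d (p19) had 32.9 CPM in DMSO (31.3 to 34.6), 35.1 CPM in untreated reporter (33.5 to 36.7) and 42.7 CPM in WT members (41.0 to 44.4). In non-cycling Lgr5 Olfm4 cells it had 3.75 CPM (2.78 to 4.95), 3.71 CPM (2.64 to 5.08) and 4.21 CPM (3.15 to 5.50), a median log2 ratio of 2.94, and in all cells without a UMI of the rule genes 11.97, 12.7 and 13.9 CPM. After thinning to 5000 UMIs a Cdkn2d UMI was found in 15.8%, 16.3% and 18.3% of members of these libraries, against 1.66%, 1.87% and 2.08% of non-cycling Lgr5 Olfm4 cells. Cdkn2c (p18) had 20.9, 21.99 and 24.3 CPM in members, against 5.85, 6.00 and 5.32 CPM in non-cycling Lgr5 Olfm4 cells (1.72). Of 8 compared p53 targets none was higher by 2-fold over either class, and Cdkn1a and Btg2 (-1.13) were lower over the wider one.

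**Figure D3:**
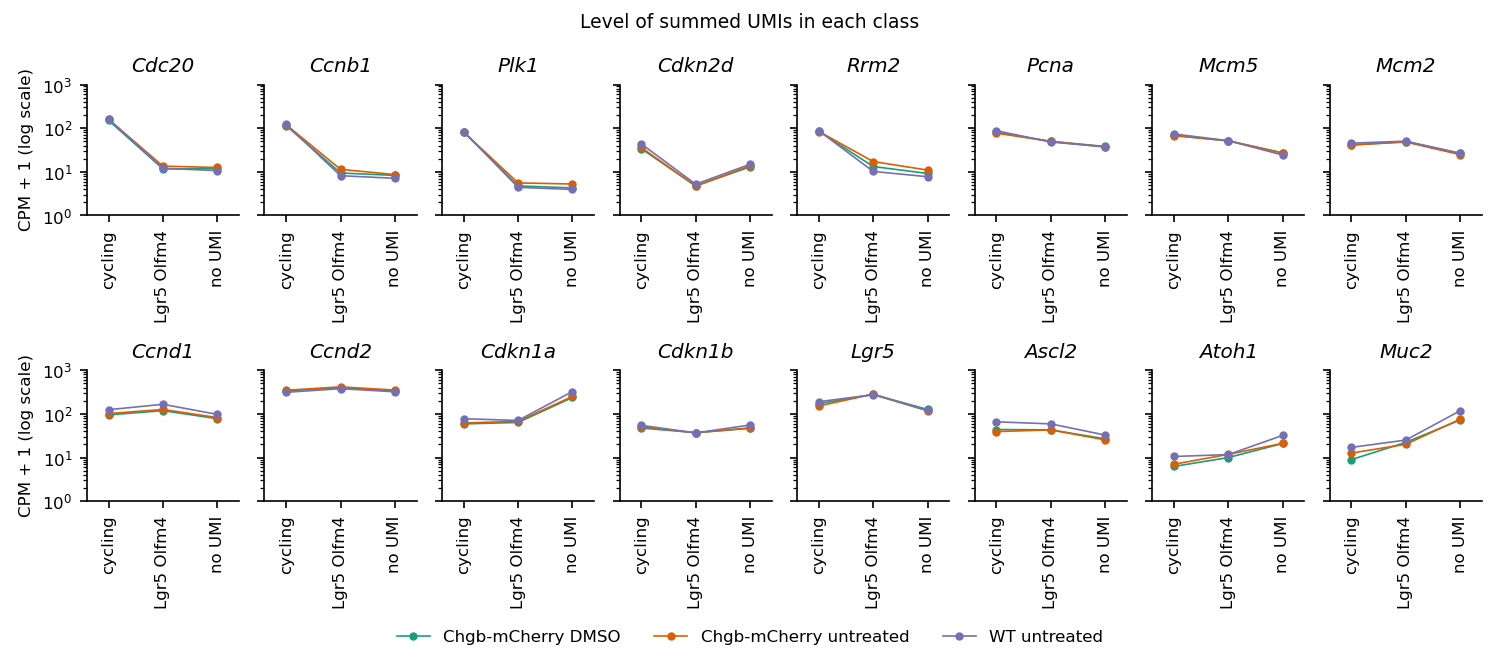
Each panel gives 1 gene's level, CPM plus 1 of summed UMIs on a log scale, in cycling cells, non-cycling Lgr5 Olfm4 cells and all cells with no Mki67 or Top2a UMI, with 1 line per control library. Cdc20, Ccnb1 and Plk1 are highest in cycling cells in every library, Mcm2 and Ccnd1 are slightly above the members in the Lgr5 Olfm4 cells, and Cdkn2d is lowest in that class (3.71 to 4.21 CPM).

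By the list median, stem cell genes stood between the other classes in the members. None of 19 compared stem cell genes was 2-fold apart over cells without a UMI of the rule genes (median log2 ratio 0.44). Of all genes 5.28% were higher and 5.03% lower by this measure, so nothing is read from the 0. Over non-cycling Lgr5 Olfm4 cells 13 of 17 were lower by some margin in all 3 libraries (median -0.26), where 27.3% of all genes compared were. Lgr5 and Olfm4, which chose that class, are left out. Genes that rise with them can still be higher in it through that choice, so the 13 of 17 is a description only. Lgr5, the R-spondin receptor, had 171 CPM in DMSO, 151 CPM in untreated reporter and 189 CPM in WT members, against 125, 116 and 118.9 CPM in all cells without a UMI of the rule genes. Ascl2, a stem cell transcription factor, had 42.9, 38.4 and 64.9 CPM in members, against 25.8, 24.4 and 31.8 CPM in those cells and 42.2, 42.0 and 58.2 CPM in non-cycling Lgr5 Olfm4 cells. WT members had the most Ascl2, and so did the WT cells of both other classes.

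After thinning to 5000 UMIs, Lgr5 was detected in 55.8% of DMSO, 50.6% of untreated reporter and 58.7% of WT members. It was found in 3.0%, 2.35% and 4.03% of enterocyte-marked cells (at least 20 Apoa1 UMIs), which should lack it. Before thinning the median depth of these members was 18564 to 22644 UMIs and that of the enterocyte-marked cells 16208 to 16974.5, and without thinning Lgr5 was detected in 89.43% of DMSO, 83.83% of untreated reporter and 92.51% of WT members. Ascl2 was detected in 16.3%, 15.2% and 26.5% of members, against 1.0%, 0.588% and 1.61% of those cells. By the list median, 12 Wnt pathway genes ran alongside, at 0.27 over the wider class and -0.25 over non-cycling Lgr5 Olfm4 cells. None was 2-fold apart from either class. Of all genes 5.28% were higher and 5.03% lower over the wider class, and 3.72% and 0.152% over Lgr5 Olfm4 cells. Nothing is therefore read from this 0. Hes1, a Notch target, was at -0.25 over non-cycling Lgr5 Olfm4 cells with 109 to 119.4 CPM in members, and Myc at -0.41 with 49.1 to 50.6 CPM.

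Cholesterol synthesis genes stood slightly but evenly higher in the members than in non-cycling Lgr5 Olfm4 cells. All 20 compared genes were higher in all 3 libraries, with a median log2 ratio of 0.41 (range 0.19 to 0.69), where 52.5% of all 5267 genes compared were higher in all 3 and the median was 0.08. Sqle, the squalene epoxidase, had 130.4 CPM in DMSO, 130.3 CPM in untreated reporter and 131 CPM in WT members, against 90.1, 96.8 and 96.7 CPM in the Lgr5 Olfm4 cells (0.44). None reached 2-fold, and over all cells without a UMI of the rule genes 4 were higher and 12 lower in all 3 libraries (median -0.10).

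MYC and ribosome biogenesis genes stood nearer to the Lgr5 Olfm4 cells. All 20 compared genes were higher in members than in cells without a UMI of the rule genes in all 3 libraries (median 0.68, range 0.28 to 1.13). Of all 5645 genes 50.3% were. Over non-cycling Lgr5 Olfm4 cells 13 of 20 were higher in all 3 libraries (median 0.19), against 52.5% of all genes (median 0.08). Ncl, which encodes nucleolin, had 1019 CPM in DMSO, 1049 CPM in untreated reporter and 924 CPM in WT members, against 552, 571 and 515 CPM in cells without a UMI of the rule genes. Glycolysis genes were lower in all 3 libraries for 14 of 16 over that class (median -0.34), against 39.8% of all genes. Over non-cycling Lgr5 Olfm4 cells 9 of 15 were higher and 6 lower in all 3 libraries (median 0.07), against 52.5% and 27.3% of all genes.

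Genes of mature lineages were lower in members than in the wider class. Lower by at least 2-fold in all 3 libraries were 20 of 20 enteroendocrine genes (median -3.82), 6 of 6 tuft genes (-3.54), 11 of 11 Paneth genes (-2.90), 10 of 11 goblet genes (-2.75) and 12 of 15 enterocyte genes (-2.35). The share over all genes was 5.03%. Over non-cycling Lgr5 Olfm4 cells 1 of 6 enteroendocrine (median -0.79), 1 of 8 Paneth (-1.02), 1 of 7 goblet (-1.08) and 0 of 9 enterocyte genes (0.20) were, against 0.152% of all genes. No tuft gene was compared. Lower by any margin in all 3 libraries were 4 of 6 enteroendocrine, 6 of 8 Paneth, 7 of 7 goblet and 3 of 9 enterocyte genes, against 27.3% of all genes. Without the top 8% of Scrublet scores 1 of 1 enteroendocrine, 2 of 8 Paneth, 4 of 7 goblet and 0 of 8 enterocyte genes were 2-fold lower. Over the wider class the hormone genes Gip (-6.23), Sst (-5.88) and Gcg (-5.45) had the lowest ratios. Chgb, the granule gene that carries the reporter, had 73.0 CPM in DMSO, 62.8 CPM in untreated reporter and 106.5 CPM in WT members, against 1160, 1347 and 1709 CPM. In cells of 10000 to 20000 UMIs the count of lower genes over this class was 170 in place of 284.

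Genes of the steps toward secretory fate were also lower than in the wider class. Of 7 secretory progenitor genes 4 were at least 2-fold lower over it, against 5.03% of all genes. Atoh1, the secretory fate factor, had 5.27 CPM in DMSO, 6.02 CPM in untreated reporter and 9.58 CPM in WT members, against 20.01, 20.2 and 31.2 CPM (-1.61). Neurog3, which starts enteroendocrine fate, had 6.76, 4.36 and 5.82 CPM in members, against 50.2, 55.9 and 49.6 CPM (-2.89). After thinning a Neurog3 UMI was found in 0.740%, 0.782% and 1.24% of members, against 0.5% and 0.588% of enterocyte-marked cells in DMSO and untreated reporter and 0 of 124 such cells in WT organoids, which allows a share of up to 2.42% (3 counts of the total). None of these shares stood clear of that background, and they are not read as expression.

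The 8 genes lower than in non-cycling Lgr5 Olfm4 cells were few enough to name. Ung, a uracil-DNA glycosylase known for its level at the start of S phase, had 24.3 CPM in DMSO, 22.7 CPM in untreated reporter and 26.4 CPM in WT members, against 56.1, 61.4 and 65.7 CPM (-1.28). Mxd4, a MAX partner that opposes MYC, had 10.9, 10.0 and 10.8 CPM in members, against 35.2, 34.01 and 29.4 CPM (-1.60). Both were picked for being at least 2-fold lower in all 3 libraries, so this separation follows from the choice. The others were the hormone gene Gip (-3.11), Rnase1 (-1.50), the colipase gene Clps (-1.32), Edn1 (-1.31), which encodes endothelin, the goblet gene Fcgbp (-1.08) and the Paneth defensin Defa24 (-1.07). For Gip 1 WT cell of the Lgr5 Olfm4 class held 2775 of 2818 UMIs (98.47%). The count of 8 genes was 18 without the top 8% of Scrublet scores, and 14 without the WT library, 17 without untreated reporter and 10 without DMSO.

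Looked at from the lineages, cells with at least 2 Lgr5 UMIs were cycling in 39.82% of 4325 cells in DMSO (38.35 to 41.29), 42.13% of 4232 in untreated reporter and 43.96% of 4447 in WT organoids. Among cells with at least 2 UMIs of Atoh1 the shares were 17.11%, 19.77% and 19.78%, and with at least 2 of the Notch ligand Dll1 22.51%, 16.93% and 23.31%. Among cells with at least 2 Neurog3 UMIs 26 of 235 in DMSO (11.06%, 7.356 to 15.79), 24 of 247 in untreated reporter (9.717%, 6.325 to 14.11) and 30 of 254 in WT organoids (11.81%, 8.112 to 16.43) were cycling. With at least 5 UMIs of the Paneth gene Mmp7 the shares were 10.05%, 9.27% and 13.39%, with at least 3 of the tuft gene Dclk1 11.31%, 7.432% and 4.823%, and with at least 10 of the goblet gene Muc2 4.516%, 9.489% and 9.195%. They were 4.848%, 5.319% and 6.648% with at least 20 Chgb UMIs, and 4.425%, 5.357% and 5.909% with at least 20 Apoa1 UMIs. Lgr5 cells had the highest share of these classes in every library, and the order among the mature markers differed between libraries. These shares are at full depth, and depth differed between the marker classes. Among their cells with no UMI of the rule genes, the median was 13018, 11978 and 14208.5 UMIs for Lgr5. It was 7741, 7581.5 and 7632.5 UMIs for Chgb, and 14244, 13616 and 11294.5 UMIs for Apoa1. The part of depth in these shares was not tested.

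Doublet scores moved with these shares. The median Scrublet score was 0.063, 0.063 and 0.053 in cycling Lgr5 cells of the DMSO, untreated reporter and WT libraries, against 0.234, 0.268 and 0.25 in cycling Chgb cells and 0.183, 0.268 and 0.196 in cycling Neurog3 cells. Without the top 8% of scores the Lgr5 shares were 37.11%, 39.56% and 41.53%, the Atoh1 shares 7.942%, 12.2% and 12.47%, the Neurog3 shares 3.141%, 3.846% and 3.535%, and the Chgb shares 1.423%, 1.266% and 0.6601%. Cycling cells with a mature or endocrine marker thus had far lower shares without these scores, while Lgr5 cells had nearly the same. Whether the removed cells were doublets was not tested.

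**Figure D4:**
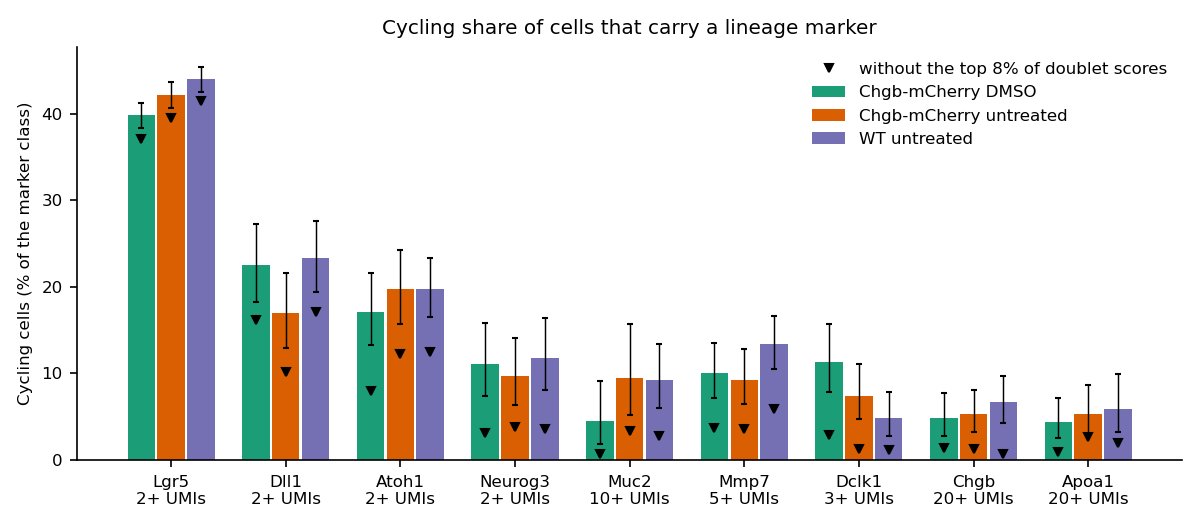
Bars give the percent of cycling cells among cells with the stated number of UMIs of a lineage marker in each control library, with exact binomial 95% intervals; triangles give the share without the top 8% of doublet scores. Lgr5 cells stand at 39.82% to 43.96% and at 37.11% to 41.53% without those scores, while Chgb cells stand at 4.848% to 6.648% and at 0.6601% to 1.423%.

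Among the members themselves, replication and mitosis transcripts were spread unevenly. In members thinned to 5000 UMIs, 63 replication genes (licensing, nucleotide supply and G1/S lists) gave a median of 20 UMIs per cell in DMSO, 19 in untreated reporter and 20 in WT organoids, and 97 mitosis genes gave 39, 41 and 42. The numbers ran in opposite directions from cell to cell, with a Spearman rho of -0.56 over 2299 DMSO, -0.53 over 2684 untreated reporter and -0.53 over 2349 WT members. The rho is a description, since both counts share 1 fixed total and the rule selects on 2 genes of the late cycle. More replication than mitosis UMIs were found in 31.17% of the Isx-9 cells that pass the rule (28.06 to 34.41), 27.93% of DMSO members (26.1 to 29.81), 24.93% of untreated reporter members (23.3 to 26.61) and 26.69% of WT members (24.91 to 28.53). The Isx-9 interval overlapped those of DMSO and WT, with cells called doublets kept in the Isx-9 share. Cells within 2 UMIs of a tie were 5.785%, 4.955% and 4.811%, so this split cuts a continuous range and names no cell type.

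Non-cycling Lgr5 Olfm4 cells leaned to replication in 79.94%, 80.4% and 81.42% of cells, with medians of 10 to 11 replication and 5 mitosis UMIs. Within 2 UMIs of a tie were 22.14%, 22.1% and 22.25% of this class. All cells without a UMI of the rule genes leaned to replication in 55.48%, 55.86% and 51.52% of cells. Of these cells 45.31%, 44.39% and 46.44% were within 2 UMIs of a tie. Members with exactly 2 UMIs of each gene had a median of 26, 22 and 25 replication UMIs, above the median of all members. Cells with 1 Mki67 and at least 2 Top2a UMIs, just outside the rule, had 30, 25 and 32, also above the members as a whole. Those with 1 Top2a and at least 2 Mki67 UMIs had 15, 14 and 14, below the members, and those with 1 UMI of each gene 17, 19 and 18.5.

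**Figure D5:**
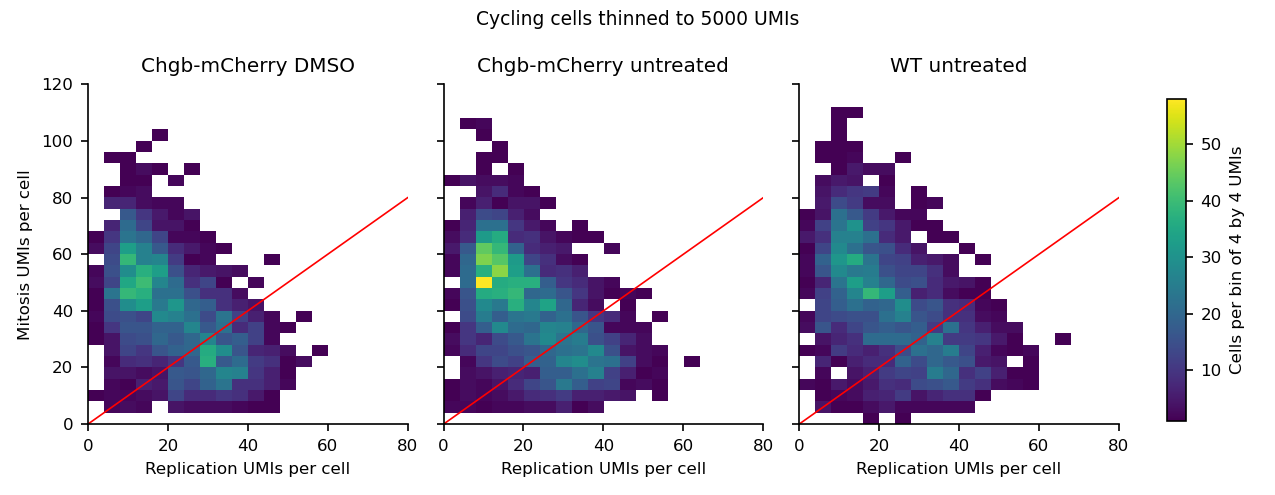
Each panel shows 1 control library's cycling cells after thinning to 5000 UMIs, by replication UMIs (x axis) and mitosis UMIs (y axis) per cell, with colour for the number of cells per bin and a red line where both are equal. Most cells lie above the line, and 24.93% to 27.93% lie below it.

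Genes of the mitosis-leaning and replication-leaning members were set side by side per library, again as a description for the genes that made the split. Of 5273 genes 66 were at least 2-fold higher in mitosis-leaning members in all 3 libraries (1.25%) and 42 were lower (0.797%), of which 21 and 16 were outside the cell cycle lists. Ccnb1 had 148 CPM in DMSO, 149 CPM in untreated reporter and 156 CPM in WT mitosis-leaning members, against 20.5, 25.6 and 22.6 CPM in replication-leaning members. Ccne1 stood the other way, at 7.14, 7.54 and 8.79 CPM in mitosis-leaning members, against 37.6, 41.7 and 44.5 CPM. The next genes, outside the cell cycle lists, were picked as among the furthest apart in this comparison, so they follow the split by choice. Arl6ip1 (1.84), Miip (1.88) and the importin Kpna2 (1.83) were higher in mitosis-leaning members. Ung was lower there (-2.93), at 7.84 CPM in DMSO, 8.63 CPM in untreated reporter and 9.13 CPM in WT mitosis-leaning members, against 69.8, 66.9 and 76.4 CPM in replication-leaning members.

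The CDK inhibitors differed along this split. Cdkn2d had 39.2 CPM in DMSO, 40.6 CPM in untreated reporter and 51.3 CPM in WT mitosis-leaning members, against 16.0, 17.6 and 18.2 CPM in replication-leaning members (1.25). Cdkn2c was level (-0.06). Ccnd1 was at -0.53, and the histones Hist1h2ap (0.35) and Hist1h1b (0.15) stayed within 2-fold. Lgr5 (0.02), Ascl2 (-0.11) and Olfm4 (-0.35) had near-equal levels on both sides.

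Between libraries the members' cell cycle genes were less than 2-fold apart, in members chosen by the same Mki67 and Top2a minimum in every library. Few of all genes were called in these pairs, so nothing is read from a count of 0 among the cell cycle genes. In untreated reporter over WT members, 0 of 191 cell cycle genes were 2-fold apart (median -0.11, range -0.47 to 0.34), against 7 higher (0.129%) and 26 lower (0.478%) of all 5436 genes compared. Cdc20 had 158 CPM in untreated reporter and 159.8 CPM in WT members, a ratio of 0.989 (exact conditional 95% interval 0.960 to 1.02). The genes furthest apart were not of the cycle. Xist, the RNA of the inactive X chromosome, had 0.267 CPM in untreated reporter members (14 UMIs), against 451 CPM in WT members (25068 UMIs), and differed alike in cells without a UMI of the rule genes (-8.52). Hoxb9 had 2.06 CPM in untreated reporter members and 36.8 CPM in WT members, with Hoxb8 (-3.54) and Hoxb7 (-3.16), neighbours in one cluster of positional genes, lower beside it. Bex1 had 13.2 CPM in untreated reporter and 126 CPM in WT members. Ccl28, a mucosal chemokine, had 40.1 CPM in untreated reporter and 13.0 CPM in WT members, the largest ratio upward (1.55). Eif3j1 (1.33) and Eif3j2 (-3.37) are near-identical copies, so their split is uncertain. For Nts (-2.47) 1 WT cell held 957 of 1145 UMIs (83.58%).

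In DMSO over untreated reporter members, 0 of 188 cell cycle genes were 2-fold apart (median -0.03, range -0.18 to 0.19). Here too nothing is read from the 0. Of all 5328 genes compared 0 were higher (0%) and 2 were lower (0.0375%), a count that went between 1 and 5 under other settings. The 2 genes rested on single cells: Pyy, a hormone gene, had 3.39 CPM in DMSO and 27.7 CPM in untreated reporter members, where 1 cell held 1386 of 1453 UMIs, and the defensin Defa22 had 5.16 CPM in DMSO and 33.7 CPM in untreated reporter members, where 1 cell held 1220 of 1767. Just under 2-fold stood the early response genes Atf3 (0.88), with 35.6 CPM in DMSO and 18.9 CPM in untreated reporter members, and Cyr61 (0.83), with 43.8 CPM in DMSO and 24.2 CPM in untreated reporter members. Both library pairs share the untreated reporter library, so their ratios are not independent.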

How the data were processed

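Counts are UMI counts per gene and cell as the authors deposited them, without normalization; Cell Ranger 3.1.0, Seurat 3.1.5 and the build GRCm38 are named in the submitters' processing notes, and the annotation is not given in the sources used here. Only barcodes with at least 500 UMIs and 200 genes are in the matrices. The bulk RNA-seq libraries and the 6 ATAC-seq samples were not used here.

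Members and gene lists (33) were chosen with earlier results of these data known. UMIs were summed per library and class and scaled to CPM over all genes. Ratios are log2 of CPM plus a pseudocount of 1, and the fold understates the change of low genes. With 1 library per condition no p-value was computed. Intervals are exact 95% binomial, Poisson or conditional ones, and cover counting error only. Thinning drew 5000 UMIs per cell at random, and left out the shallower cells (1065 in DMSO, 1115 in untreated reporter and 1123 in WT organoids). Doublets were scored with Scrublet in scanpy 1.11.5. It called nearly none in the libraries without Isx-9, so removing its calls moved no count of genes. The top 8% of scores were removed as an alternative chosen after seeing the data. The computation of class ratios, which are descriptions with no significance test, was checked on simulated counts with known folds. Genes were named by this rule: the 15 highest and lowest called genes per class comparison, the 10 furthest outside the cell cycle lists, the 10 furthest per library pair, up to 4 per list, and a fixed set of cycle and lineage genes; others, among them genes of the replication-leaning split, were chosen after their values were seen. Gene identifiers matched for 627 of 630 symbols. Promoter windows are from RefSeq (GRCm38.p6), with chromosome 18 left out. Python 3.11.15, numpy 2.4.6, pandas 2.3.3, scipy 1.17.1 and matplotlib 3.10.9 were used.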

Additional observations from a re-analysis of the deposited data

Results flagged for a closer look

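For 4 genes the members stood above non-cycling Lgr5 Olfm4 cells in some libraries and below them in others; the difference was not tested. The Paneth defensin Defa21 had a log2 ratio of -1.76 in DMSO, 2.03 in untreated reporter and -1.84 in WT organoids. Defa22 had -4.34, 2.57 and -2.38, and Defa30 had -2.87, 1.01 and -1.21 in these libraries. The hormone gene Ghrl had -1.86, -0.17 and 1.67. Single cells carried many of these UMIs: 1 untreated reporter member held 874 of 1081 Defa21 UMIs and 1 DMSO Lgr5 Olfm4 cell 593 of 668, and 1 WT member held 3955 of 4656 Ghrl UMIs (84.94%).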

How the results depend on the processing

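No paired analysis was possible because the conditions are 1 library each and share no replicate; class ratios were formed within each library. The share of cycling cells followed the rule and the depth. In DMSO, untreated reporter and WT organoids it was 34.16%, 36.94% and 33.95% with at least 1 UMI of each gene, 21.92%, 23.61% and 24.05% with at least 3, 27.6%, 30% and 28.38% with a mitochondrial limit of 10%, 27.43%, 29.77% and 28.89% with at least 2000 UMIs and 1000 genes, and 10.75%, 13.0% and 12.2% after thinning. Without the top 8% of Scrublet scores, chosen after seeing the data, it was 24.04%, 26.39% and 25.07%. Replication-leaning members were 23.4%, 20.32% and 21.43% with at least 3 UMIs. Genes lower than in cells without a UMI of the rule genes numbered 624 with at least 5 CPM and 170 in cells of 10000 to 20000 UMIs, also chosen after seeing the data. Genes lower than in non-cycling Lgr5 Olfm4 cells, 8 as reported, numbered 4 with at least 1 UMI, 13 with at least 5 CPM, 18 without the top scores and 5 in the depth window, and between 10 and 17 with 1 library left out. With at least 5 CPM untreated reporter over WT members gave 24 higher and 76 lower genes. DMSO over untreated reporter members gave 1 higher gene with at least 1 UMI and 1 with at least 5 CPM, and 5 lower ones with at least 3 UMIs, 5 with at least 5 CPM, 5 without the top scores and 1 with the mean of per-cell CPM. The cause was not tested, except that lower limits compare more genes. Thinned to 10000 UMIs, replication-leaning members were 27.18%, 25.17% and 27.57%, so that WT stood above DMSO there and below it as reported. Likewise the order of the libraries in the share of cycling cells differed with the UMI minimum. The depth of 1 library per condition limits every comparison to these libraries, and low genes such as Neurog3 rest on few UMIs. Doublets could not be called in the libraries without Isx-9.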
